A study of Homo sapiens with 6 samples.

Results

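The genes described here are 35 genes of the NRF2 pathway and the aldo-keto reductase family, taken by gene name from the 58735 genes counted in each library. They were examined in A549, a human lung adenocarcinoma line, in cells that had stably received lentivirus in 3 ways, with 2 RNA sequencing libraries per group. In the T133A group the virus carried HOXB9, a homeobox transcription factor, with threonine replaced by alanine at the position the name gives. In the KO group the genotype is given as a lentiviral HOXB9 knockout, and in the WT group the virus carried HOXB9 itself. All 3 groups share the line, the lentiviral backbone (PLVX) and culture in RPMI medium with 10% FBS. No untreated or empty-vector cells were analysed here, so no group shows the level in the unmodified line. The labels do not say whether the replicates were separate cultures or whether a group was 1 clone, so p-values measure the spread between these libraries only, which may be technical.

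NRF2, encoded by NFE2L2, is a transcription factor that is normally held low by KEAP1, the adaptor that passes it to a CUL3 ubiquitin ligase. When KEAP1 is modified by electrophiles or lost, NRF2 enters the nucleus, pairs with small MAF proteins such as MAFG, and binds antioxidant response elements near genes for glutathione synthesis, thioredoxin reduction, NADPH supply, haem and iron handling, quinone reduction and carbonyl reduction. A549 is known for a loss-of-function KEAP1 mutation, so NRF2 is active in this line without added stress and several target genes are highly expressed. The aldo-keto reductases use NADPH to reduce aldehydes and ketones. Those of the AKR1C branch act on steroids and prostaglandins, AKR1B1 (aldose reductase) reduces glucose to sorbitol, and AKR1B10 reduces retinal and other aldehydes.

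Letters of the antioxidant response element were looked for in the RefSeq promoters (GRCh38.p14, 250 bases before to 50 bases after a start), which were found for 27 of the 35 genes. HMOX1, PRDX1, GSR, FTH1, CBR3, TRIM16L, AKR1B10 and AKR1B15 were not among them. The core TGACNNNGC was searched on both strands, where the other strand reads GCNNNGTCA. It was present in the promoters of 9 of the 27 genes (33.3%), against 16.1% of the 27305 genes of the promoter table and 18.0% of the protein-coding genes that the files and the table share. Counted by promoter, it was in 10 of 36 (27.8%), against 13.3% of all 35116 promoters. The 35 genes were listed as an NRF2 pathway, so a larger share than among all genes may follow from that choice. The 9 genes were KEAP1, GCLM, TXNRD1, PGD, ME1, GPX2, EPHX1, CBR1 and PIR. The shorter motif TGANTCA, which can overlap the core and is read by AP-1 factors, was in 8.33% of the members' promoters, against 7.71% of all promoters. The 5 windows printed here, 5′ to 3′ on the strand of the gene with the core in capitals, belong to genes whose RNA went different ways in the comparisons described after them. The printed core began 34 bases before the start in GCLM, 102 in TXNRD1, 122 in GPX2, 137 in ME1 and 78 in EPHX1. In ME1 it overlaps TGANTCA. Further cores are not printed. TXNRD1 had them 99 and 8 bases before the start of another promoter, and ME1 had 1 past its start. A match describes letters and not a bound site. Elements further from a start were not searched, so a gene without a match here may have one elsewhere.
GCLM, chr1:93909431-93909489, minus strand: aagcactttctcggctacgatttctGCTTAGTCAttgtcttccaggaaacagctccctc
TXNRD1, chr12:104286905-104286963, plus strand: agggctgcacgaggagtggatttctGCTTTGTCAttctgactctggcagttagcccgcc
GPX2, chr14:64942834-64942892, minus strand: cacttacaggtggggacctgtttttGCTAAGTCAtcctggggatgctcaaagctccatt
ME1, chr6:83431155-83431213, minus strand: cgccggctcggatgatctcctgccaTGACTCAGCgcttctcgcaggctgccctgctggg
EPHX1, chr1:225825251-225825309, plus strand: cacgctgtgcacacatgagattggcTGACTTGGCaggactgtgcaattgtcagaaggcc

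Libraries held 16299059 to 18745432 counts, and all 35 genes passed the low-count filter that left 16340 genes for testing. HOXB9 stood at 275 and 210 CPM (TMM-scaled read counts relative to library size) in T133A, 14.5 and 15.4 CPM in KO and 223 and 217 CPM in WT, so the KO libraries were low, as labelled, but not at 0. Mitochondrial genes took 8.51 to 8.91% of counts in T133A, 4.45 to 5.60% in KO and 7.84 to 7.87% in WT. All 6 epithelial markers had counts in every group, with sums of 8422 to 10085 CPM in T133A, 7899 to 8874 CPM in KO and 8657 to 9254 CPM in WT. Keratins 8 and 18 carry these sums, and single markers differed in KO against WT: EPCAM was 8.58-fold lower (edgeR adjusted p = 4.01e-11), CDH1 was 1.84-fold lower (1.34e-06) and KRT7 was 2.03-fold higher (1.38e-07). KRT7 was also called higher in T133A than in WT (log2 fold change 0.58, adjusted p = 0.00121). Fibroblast markers (7 genes) summed to 40.4 to 42.1 CPM in T133A, 9.65 to 10.6 CPM in KO, where DCN was at 0, and 42.0 to 42.1 CPM in WT. Most of the KO fall lay in LUM (0.243 and 0.215 CPM, against 21.6 and 20.9 in WT) and COL3A1 (0.0607 and 0.0538, against 13.3 and 13.4). COL1A1 went the other way, with 9.04 and 9.90 CPM in KO and 6.43 and 6.36 in WT. So did PDGFRB, which had 5 and 6 counts in KO. Haematopoietic markers (7 genes) summed to 5.65 to 13.5 CPM over the 6 libraries, with PTPRC at 0 in T133A and KO, and endothelial markers (6 genes) to 0.377 to 2.41 CPM. CDKN2A, which is deleted in A549, had 8 and 7 counts in T133A and 0 in KO and WT. Apart from a fit without the mitochondrial genome genes, given at the end, the part of these differences in the results was not tested. In bulk RNA, fewer cells with a transcript and less of it per cell cannot be told apart.

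In KO cells most of these genes moved, in both directions. Tested with edgeR's quasi-likelihood test and Benjamini-Hochberg adjustment over all 16340 genes (threshold 0.05), 17 of the 35 were higher in KO than in WT, 10 were lower and 8 were not called. Of all genes tested, 23.6% were called higher and 23.0% lower in the same comparison, against 48.6% and 28.6% of the members. The 35 genes were chosen with earlier results of these data known. Member shares that differ from those of all genes, here and in the other comparisons, therefore only describe this list. The median log2 fold change of the members was 0.26, against 0.00 over all genes. Both KO libraries were above both WT libraries for 20 members (37.8% of all genes) and under both for 10 (37.5% of all genes). By role, all 4 haem and iron genes and all 4 of OSGIN1, NR0B1, PIR and TRIM16L were called higher, whereas 4 of the 6 aldo-keto reductases and 3 of the 5 NADPH and sugar enzymes were called lower. Across the 16332 genes with a GC value, the fold change rose with the GC content of the transcripts (Spearman's rho 0.26, a description across genes of the same 4 libraries). With a correction for GC and length, 16 members were called higher and 10 lower, and the members' median was 0.09. Requiring an absolute log2 fold change of 0.5 left 10 higher and 4 lower, and without WT replicate 1 or 2 the members called lower numbered 6 and 5.

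In T133A cells fewer of these genes were called against WT than in KO cells. Only AKR1B1 was higher than in WT, while 7 were lower (OSGIN1, NR0B1, AKR1C2, AKR1B10, ME1, EPHX1 and UGDH) and 27 were not called. Of all genes tested, 5.58% were called higher and 3.97% lower, against 1 and 7 of the 35 members. The members' median log2 fold change was -0.24, against 0.00 over all genes, and 26 of the 35 had a value under 0. Both T133A libraries were under both WT libraries for 22 members (25.7% of all genes) and above them for 2 (27.8%). The count of 7 depended on the fit: it was 16 when either KO library was left out, 15 with scaling by library size only, 12 with the GC and length correction and 4 when the absolute log2 fold change also had to reach 0.5. In each of those fits 1 member was called higher. Of the 27 members not called, 12 passed the threshold under at least 1 alternative (AKR1C1, AKR1C3, FTL, GCLC, GCLM, GPX2, HMOX1, NQO1, PGD, PIR, SRXN1 and TKT).

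Set directly against each other, T133A cells had 4 members higher than KO cells (GPX2, AKR1C1, AKR1C2 and AKR1C3), 19 lower and 12 not called. Of all genes tested, 20.3% were called higher and 19.6% lower, against 11.4% and 54.3% of the members. With the GC and length correction 6 members were called higher and 17 lower, beside 4034 and 3198 of the 16340 genes. The members' median log2 fold change was then -0.18, against -0.36 without it. Both T133A libraries were under both KO libraries for 22 members (34.0% of all genes) and above them for 4 (32.9%). The 3 comparisons share libraries, so their values are given side by side and their overlap was not tested.

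**Figure D1:**
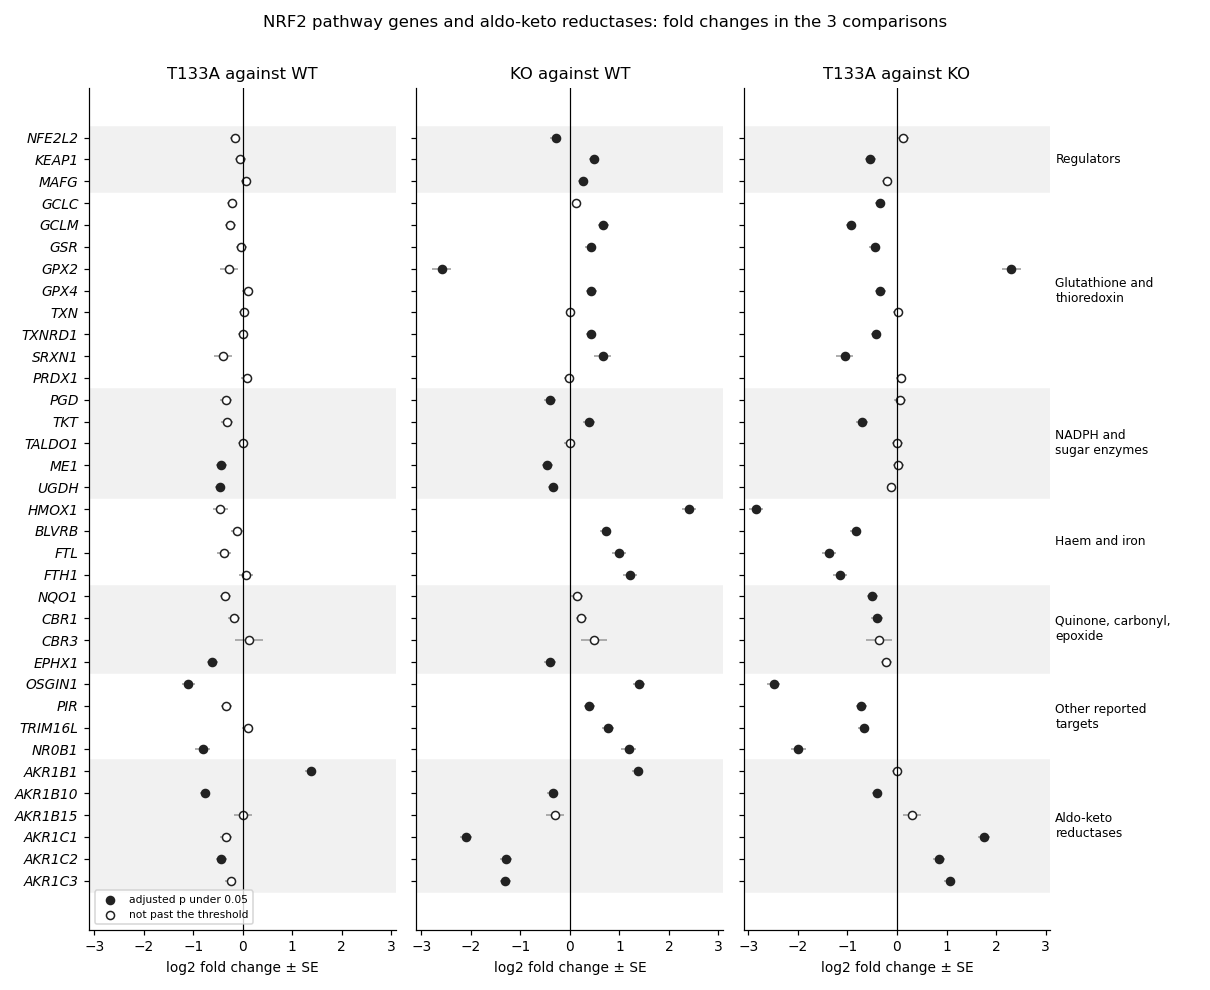
Log2 fold change of each of the 35 genes in 3 comparisons (T133A against WT, KO against WT, T133A against KO), with bars of 1 standard error from the edgeR fit. The scale runs for KO against WT between -2.59 for GPX2 and 2.40 for HMOX1, and for T133A against WT between -1.10 for OSGIN1 and 1.37 for AKR1B1.

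The regulators themselves moved little. NFE2L2 (ENSG00000116044, chr2:177227595-177392697, minus strand, GRCh38 as the files give it) had 66.8 and 76.6 CPM in T133A, 68.2 and 63.3 CPM in KO, and 82.0 and 77.8 CPM in WT. Both other groups lay under WT, and the KO difference was called (log2 fold change -0.28, SE 0.11, edgeR adjusted p = 0.0405), while the T133A difference was not (-0.16, adjusted p = 0.429). The KO call was lost when any 1 KO or WT library was left out (adjusted p 0.0661 to 0.295), without a low-count filter (0.0975), with the replicate number as a block (0.0815) and with the GC correction (0.0598). KEAP1 (ENSG00000079999, chr19:10486120-10503741, minus strand) had 77.4 and 73.3 CPM in T133A, 101 and 117 CPM in KO, and 78.03 and 78.07 CPM in WT. It was higher in KO than in WT by 0.48 on the log2 scale (SE 0.11, edgeR adjusted p = 0.000791) and lower in T133A than in KO by a log2 fold change of -0.54 (adjusted p = 0.000364). With the GC correction these values were 0.23 (adjusted p = 0.0225) and -0.32 (0.00258). MAFG, the small MAF partner, had mean levels of 135 ± 8.30 CPM in T133A, 155 ± 9.56 CPM in KO and 129 ± 3.85 CPM in WT (SD, n = 2 each). Its KO call (0.26, adjusted p = 0.0386) was lost under several settings, among them RLE size factors (0.0523), DESeq2 (0.0542), the block (0.0874), the GC correction (0.344) and the absence of KO replicate 2 (0.206) or of either WT library (0.276 and 0.166).

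In KO 5 of the 9 glutathione and thioredoxin genes were called higher than in WT and 1, GPX2, lower. Of all genes, 23.6% were called higher and 23.0% lower in that comparison. In T133A none of the 9 was called against WT, where 5.58% of all genes were called higher and 3.97% lower. GCLM, the modifier subunit of glutamate-cysteine ligase, had 127 and 153 CPM in T133A, 269 and 264 CPM in KO, and 173 and 160 CPM in WT. Its KO libraries stood above the others, by 0.68 on the log2 scale against WT (SE 0.11, edgeR adjusted p = 1.95e-05), and T133A lay 0.93 under KO (log2 fold change -0.93, adjusted p = 3.34e-07). GCLC, the catalytic subunit, differed less, with means of 166 CPM in T133A, 212 CPM in KO and 193 CPM in WT. It was called between T133A and KO (-0.35, adjusted p = 0.00708) and not against WT, but with the GC correction it was called higher in KO than in WT (0.30, adjusted p = 0.00399, against a value of 0.13 without it), and with library size only it was called in T133A against WT (-0.29, adjusted p = 0.0462). SRXN1, which repairs over-oxidised peroxiredoxins, had 10.2 and 7.94 CPM in T133A, 17.2 and 20.6 CPM in KO, and 11.3 and 12.7 CPM in WT. The KO rise was 0.66 (SE 0.17, adjusted p = 0.00227; 0.43 with the GC correction) and the T133A difference from KO was -1.06 (adjusted p = 2.96e-05). Of the 75-base stretches of SRXN1 transcripts, 84.6% also lie in an overlapping gene, AL121758.1, so its count is uncertain.

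TXNRD1, thioredoxin reductase, averaged 1644 ± 77.3 CPM in T133A, 2216 ± 61.0 CPM in KO and 1646 ± 2.05 CPM in WT (SD, n = 2 each). It was higher in KO (0.43, adjusted p = 0.00192), as were GSR, glutathione reductase (0.42, adjusted p = 0.00277), and GPX4, which reduces lipid hydroperoxides (0.43, adjusted p = 0.00288). Without KO replicate 2 the values of GSR and GPX4 were 0.26 and 0.25 and neither was called (adjusted p = 0.0526 and 0.0804), and with the GC correction GSR was at 0.27 and GPX4 was not called (0.09, adjusted p = 0.403). GPX4 was also called lower in T133A than in KO (-0.34, adjusted p = 0.0192), but its sign turned with the GC correction (0.0085, adjusted p = 0.945) and the call was lost without T133A replicate 2 (0.0561) or KO replicate 2 (-0.17, adjusted p = 0.275). TXN, thioredoxin, and PRDX1, a peroxiredoxin, were called in none of the comparisons, with absolute log2 fold changes of at most 0.09 (SE 0.10). With the GC correction, however, PRDX1 was called higher in T133A than in KO (0.30, adjusted p = 0.00405). Within the thioredoxin system the reductase was thus called in KO and thioredoxin was not.

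GPX2, a glutathione peroxidase of epithelia, went the other way and had the largest fall among the members in KO. GPX2 (ENSG00000176153, chr14:64939152-64942905, minus strand) had 506 and 451 CPM in T133A, 71.9 and 120 CPM in KO, and 562.2 and 598 CPM in WT. Neither KO library came near the others, a 6.02-fold lower level than in WT (log2 fold change -2.59, SE 0.19, edgeR adjusted p = 9.11e-07), with values of -3.03 without KO replicate 2 and -2.25 without KO replicate 1. T133A stood 2.31 above KO on the log2 scale (adjusted p = 2.66e-06), a call lost without T133A replicate 1 (0.0609) or 2 (0.0573), although the estimates were then 2.25 and 2.39. GPX2 overlaps CHURC1 on the other strand, which had 429 to 636 counts per library, and the strand setting is not given in the sources used here. Its promoter and that of GCLM both hold the core shown above, and their KO values had opposite signs. Whether the core is bound or bears on either value was not tested.

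**Figure D2:**
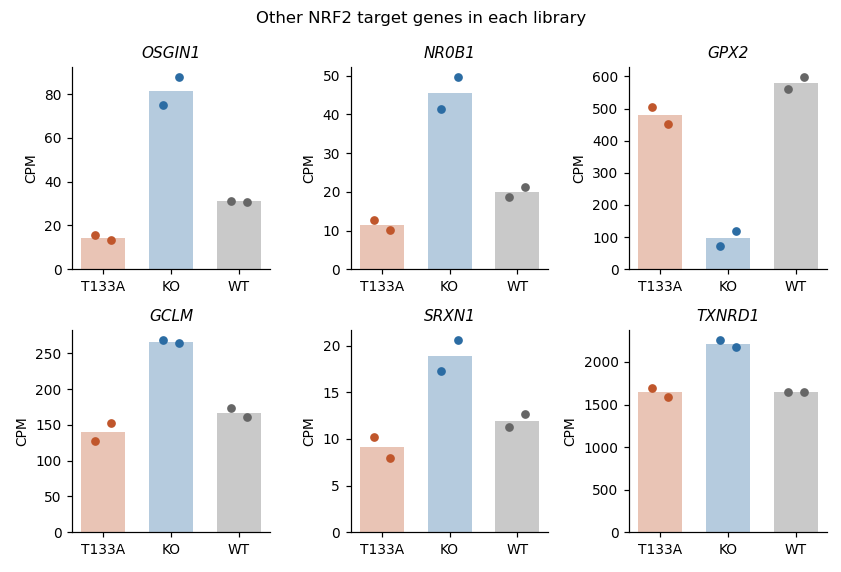
CPM of 6 reported NRF2 targets in each library (points) with the mean of the 2 libraries (bars) for T133A, KO and WT. The KO libraries are the highest for OSGIN1, NR0B1, GCLM, SRXN1 and TXNRD1 and the lowest for GPX2, and the T133A libraries of OSGIN1 and NR0B1 lie under those of WT.

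OSGIN1 and NR0B1 were called in opposite directions in the 2 altered groups. OSGIN1 (ENSG00000140961, chr16:83948282-83966332, plus strand), an oxidative stress-induced growth inhibitor, had 15.7 and 13.2 CPM in T133A, 75.2 and 87.8 CPM in KO, and 31.3 and 30.7 CPM in WT. The 3 groups did not overlap. T133A fell under WT (log2 fold change -1.10, SE 0.14, edgeR adjusted p = 5.21e-06) and KO rose above it (1.40, SE 0.12, adjusted p = 5.18e-09), and the direct difference between T133A and KO was -2.49 (adjusted p = 7e-13). NR0B1 (ENSG00000169297, chrX:30304206-30309598, minus strand), the nuclear receptor DAX1, had 12.7 and 10.1 CPM in T133A, 41.3 and 49.6 CPM in KO, and 18.8 and 21.2 CPM in WT. Its values had the same order as those of OSGIN1, with -0.81 in T133A (SE 0.16, adjusted p = 0.00121), 1.19 in KO (SE 0.14, adjusted p = 6.02e-07) and -1.99 between T133A and KO (adjusted p = 3.56e-10). All of these calls were kept at every other setting that applied no minimum fold change. OSGIN1 shares 8.42% of its 75-base stretches with AC009119.2, which had 4 to 15 counts per library.

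PIR, pirin, an iron-containing nuclear protein, had 47.1 and 42.4 CPM in T133A, 73.8 and 73.8 CPM in KO, and 55.3 and 57.4 CPM in WT. It was higher in KO (0.39, adjusted p = 0.00604, but 0.101 and 0.0576 without WT replicate 1 and 2, and a value of 0.25 with the GC correction) and lower in T133A than in KO (-0.72, adjusted p = 1.8e-05). TRIM16L, a relative of TRIM16, had 240 and 187 CPM in T133A, 346 and 334 CPM in KO, and 194 and 205 CPM in WT. Its KO rise was 0.77 (adjusted p = 7.03e-06) and T133A lay at -0.67 from KO (adjusted p = 4.76e-05). Since 42.0% of its 75-base stretches are shared with TRIM16, reads of the 2 genes may have been split or dropped. TRIM16 had the same directions, higher in KO than in WT (1.04, edgeR adjusted p = 3.92e-08) and lower in T133A than in KO (-0.93, adjusted p = 2.47e-07).

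The haem and iron genes rose together in KO, with a median log2 fold change of 1.10. All 4 were called higher than in WT, as were 23.6% of all genes. None of the 4 was called in T133A against WT, where 5.58% of all genes were called higher and 3.97% lower. HMOX1 (ENSG00000100292, chr22:35380361-35394214, plus strand), the haem oxygenase that opens haem and frees its iron, had 33.5 and 31.4 CPM in T133A, 188 and 279 CPM in KO, and 41.8 and 46.8 CPM in WT. The KO libraries differed from each other but both were far above the rest, 5.28-fold over WT (log2 fold change 2.40, SE 0.14, edgeR adjusted p = 7.31e-12), the largest rise among the 35 genes. T133A lay under WT without a call (-0.45, adjusted p = 0.055). It passed the threshold under 10 of 20 alternatives, among them library-size scaling (0.0405) and the absence of WT replicate 1 (0.0416), KO replicate 1 (0.00825) or KO replicate 2 (0.00985). Against KO, T133A stood at -2.85 (adjusted p = 5.01e-13). BLVRB, a biliverdin reductase, had 174 and 149 CPM in T133A, 250 and 327 CPM in KO, and 169 and 181 CPM in WT. It was higher in KO by 0.72 (adjusted p = 3.29e-05), or by 0.39 with the GC correction (0.00127).

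Both ferritin chains, which store iron, were higher in KO. FTL (ENSG00000087086, chr19:48965301-48966878, plus strand), the light chain, had 5459 and 4744 CPM in T133A, 10785 and 15523 CPM in KO, and 6554 and 6734 CPM in WT. That was 1.98-fold over WT in KO (0.99, SE 0.14, adjusted p = 6.64e-06; 0.65 with the GC correction), with T133A at -0.38 from WT (adjusted p = 0.0958, under the threshold in 8 of 20 alternatives). FTH1 (ENSG00000167996, chr11:61959718-61967660, minus strand), the heavy chain, had 1683 and 1190 CPM in T133A, 2733 and 3650 CPM in KO, and 1363 and 1395 CPM in WT. Its KO rise was 1.21 (SE 0.15, adjusted p = 7.97e-07) and its T133A value was 0.06 (adjusted p = 0.86). Together the 2 chains took 0.677 and 0.593% of all counts in T133A, 1.37 and 1.90% in KO, and 0.811 and 0.829% in WT. Of their 75-base stretches, 30.8% of FTH1 and 9.45% of FTL lie in other genes as well, so the counts are uncertain in part. By FPKM, FTL was the highest of the 35 in every group, with a mean of 5756 FPKM in T133A, 14990 FPKM in KO and 7511 FPKM in WT.

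Iron genes outside the 35 did not all share that direction. Of 9 further haem and iron genes tested, 3 were called higher and 1 lower in KO against WT (23.6% and 23.0% of all genes), and 2 higher and 1 lower in T133A against WT (5.58% and 3.97% of all genes). SLC40A1, ferroportin, the cell's iron exporter, had 30.4 and 33.7 CPM in T133A, 6.56 and 4.63 CPM in KO, and 61.7 and 56.8 CPM in WT. It fell in KO (log2 fold change -3.41, edgeR adjusted p = 7.83e-14) and in T133A (-0.88, adjusted p = 8.49e-05). ACO1, an iron regulatory protein, was higher in both, at 0.87 in T133A (adjusted p = 1.22e-05) and 0.99 in KO (adjusted p = 2.83e-07).

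**Figure D3:**
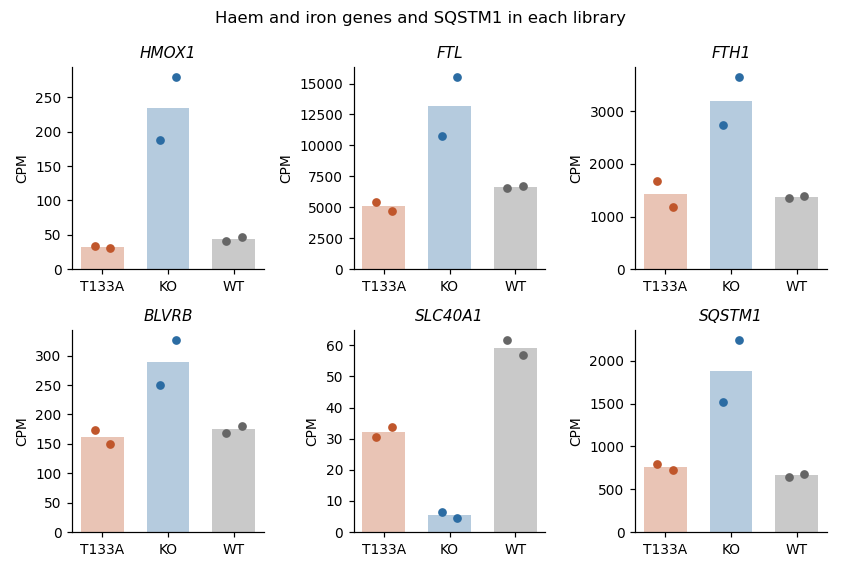
CPM of haem and iron genes and of SQSTM1 in each library (points) with the mean of the 2 libraries (bars) for T133A, KO and WT. HMOX1, FTL, FTH1, BLVRB and SQSTM1 are highest in both KO libraries, where SLC40A1 is lowest, at 6.56 and 4.63 CPM.

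NADPH and sugar enzymes were split. ME1, malic enzyme, averaged 116 ± 13.2 CPM in T133A, 115 ± 6.36 CPM in KO and 157 ± 11.1 CPM in WT (SD, n = 2 each), and was lower in both (-0.43, adjusted p = 0.0112, in T133A, and -0.46, adjusted p = 0.0015, in KO). UGDH, which makes UDP-glucuronate, averaged 403 ± 21.4 CPM in T133A, 435 ± 5.81 CPM in KO and 552 ± 6.59 CPM in WT, with log2 fold changes of -0.46 in T133A (adjusted p = 0.00355) and -0.34 in KO (adjusted p = 0.00667). In both genes the 2 altered groups lay close to each other and under WT. These calls leaned on single libraries: in KO, without WT replicate 1 both missed the threshold (0.061 for ME1 and 0.105 for UGDH), as did UGDH without WT replicate 2 (0.0691). In T133A, ME1 missed it without WT replicate 1 (0.254) or T133A replicate 1 (0.101), and UGDH without WT replicate 1 (0.0882) or 2 (0.0513).

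TKT, transketolase, had 1262 and 1039 CPM in T133A, 1652 and 2111 CPM in KO, and 1424 and 1441 CPM in WT. It was higher in KO than in WT (0.39, edgeR adjusted p = 0.0118) and lower in T133A than in KO (-0.71, adjusted p = 7.74e-05). Without KO replicate 2 the KO value was 0.19 (adjusted p = 0.161), and it was not called without WT replicate 1 (0.0635) or 2 (0.0534). PGD, phosphogluconate dehydrogenase, went the other way in KO (-0.40, adjusted p = 0.0115), with values of -0.62 without KO replicate 2 and -0.63 with the GC correction, but -0.19 without KO replicate 1 (adjusted p = 0.139) and an adjusted p of 0.0581 without WT replicate 2. TALDO1, transaldolase, was called in none of the comparisons (absolute values of at most 0.01, SE 0.11). With the GC correction TALDO1 was called lower in KO than in WT (-0.26, adjusted p = 0.00702), and T133A was then called above KO (0.21, adjusted p = 0.0333). Of 10 other genes of pentose phosphate and NADPH supply, 4 were called higher and 3 lower in KO against WT, where 23.6% and 23.0% of all genes were called, and 1 higher and 0 lower in T133A against WT, where 5.58% and 3.97% were. IDH1, the cytosolic isocitrate dehydrogenase, was among those lower in KO (-0.71, adjusted p = 1.32e-05).

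Enzymes that act on quinones, carbonyls and epoxides gave 1 call in either comparison with WT, both of EPHX1, microsomal epoxide hydrolase. Both were calls of a lower level, given to 23.0% of all genes in KO and 3.97% in T133A. EPHX1 had 217 and 187 CPM in T133A, 208 and 260 CPM in KO, and 301 and 318 CPM in WT. All 4 libraries of the altered groups were under those of WT, with log2 fold changes of -0.62 in T133A (SE 0.11, adjusted p = 0.000792) and -0.40 in KO (SE 0.11, adjusted p = 0.00588). The KO call was lost without KO replicate 1 (-0.23, adjusted p = 0.103) or WT replicate 2 (0.0659), and the KO value was -0.68 with the GC correction. NQO1, the quinone reductase most often used to read NRF2 activity, had 1469 and 1345 CPM in T133A, 1783 and 2193 CPM in KO, and 1790 and 1807 CPM in WT. NQO1 was called against WT in neither group (-0.35, adjusted p = 0.0526, in T133A and 0.14, adjusted p = 0.315, in KO), and was lower in T133A than in KO (-0.50, adjusted p = 0.00131). The T133A difference of NQO1 from WT passed the threshold under 15 of 20 alternatives, DESeq2 (0.0274) and limma-voom (0.0261) included, and the KO difference without KO replicate 1 (0.0101). The carbonyl reductase CBR1 was also called between T133A and KO (-0.41, adjusted p = 0.00751), a call lost with the GC correction (0.0841) and without T133A replicate 2 (-0.26, adjusted p = 0.0704) or KO replicate 2 (0.0722). CBR3, at 2.34 to 4.09 CPM, gave no call.

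Among the aldo-keto reductases, AKR1B1 was higher in both altered groups, with the same log2 fold change to 2 decimals. AKR1B1 (ENSG00000085662, chr7:134442350-134459284, minus strand) had 1753 and 1565 CPM in T133A, 1630 and 1681 CPM in KO, and 643 and 641 CPM in WT. The 4 libraries of the altered groups overlapped each other and stood 2.58-fold above WT in each case (log2 fold change 1.37, SE 0.11 in both, edgeR adjusted p = 3.42e-09 in T133A and 5.1e-10 in KO). The difference between T133A and KO was 0.00 (SE 0.10, adjusted p = 0.984). Over all alternatives the rise lay between 1.30 and 1.45 in T133A and between 1.15 and 1.41 in KO.

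Its neighbour AKR1B10 (ENSG00000198074, chr7:134527592-134541408, plus strand) moved in the other direction, with 904 and 845 CPM in T133A, 1095 and 1226 CPM in KO, and 1462 and 1500 CPM in WT. The 3 groups did not overlap, and T133A was the lowest. It fell in T133A (-0.76, SE 0.11, adjusted p = 2.48e-05) more than in KO (-0.35, SE 0.11, adjusted p = 0.00889), with a direct difference of -0.41 between them (adjusted p = 0.0035), but the KO call was lost without WT replicate 1 (0.0745) or 2 (0.104). In FPKM, the ratio of AKR1B10 to AKR1B1 was 1.08 and 1.13 in T133A, 1.41 and 1.53 in KO, and 4.77 and 4.91 in WT. These FPKM divide by a gene length, 1744 bases for AKR1B10 and 3660 for AKR1B1. The longest protein-coding transcripts have 1590 and 1409 bases. Which of the 2 genes is higher in T133A and in KO therefore depends on the length used. AKR1B15, the next gene along (chr7:134549136-134579875, plus strand), was far lower at 14.3 and 10.8 CPM in T133A, 9.23 and 11.1 CPM in KO, and 14.3 and 10.9 CPM in WT, and was called in no comparison (T133A against KO reached an adjusted p of 0.0498 without T133A replicate 2).

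The AKR1C genes, which lie next to each other on chromosome 10, were all lower in KO. AKR1C1 (ENSG00000187134, chr10:4963253-4983283, plus strand), which inactivates progesterone, had 666 and 618 CPM in T133A, 161 and 220 CPM in KO, and 816 and 810 CPM in WT. In KO it fell 4.26-fold against WT (log2 fold change -2.09, SE 0.12, edgeR adjusted p = 4.96e-12), and in T133A it was at -0.34 without a call (adjusted p = 0.0771). AKR1C2 (ENSG00000151632, chr10:4987400-5018031, minus strand), which reduces dihydrotestosterone, had 2017 and 1920 CPM in T133A, 954 and 1224 CPM in KO, and 2667 and 2643 CPM in WT. It fell in KO (-1.29, SE 0.12, adjusted p = 8.83e-09) and in T133A (-0.43, SE 0.12, adjusted p = 0.02), the T133A call being lost without WT replicate 1 (0.135) or 2 (0.1).

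AKR1C3 (ENSG00000196139, chr10:5035354-5107686, plus strand), which makes testosterone and prostaglandin F, had 1606 and 1522 CPM in T133A, 668 and 825 CPM in KO, and 1835 and 1859 CPM in WT. It fell in KO (-1.31, SE 0.11, edgeR adjusted p = 3.31e-09) and was not called in T133A (-0.24, adjusted p = 0.202). All 3 genes thus had KO under the other groups with no overlap, and T133A between KO and WT. T133A was higher than KO by 1.75 for AKR1C1 (adjusted p = 8.63e-11), 0.85 for AKR1C2 (adjusted p = 4.44e-06) and 1.07 for AKR1C3 (adjusted p = 9.36e-08). Summed, they had 4288 and 4060 CPM in T133A, 1783 and 2269 CPM in KO, and 5318 and 5313 CPM in WT. The sum is less open to how reads of similar copies were split, since 41.3% of AKR1C2, 22.2% of AKR1C1 and 7.91% of AKR1C3 75-base stretches lie in other genes. The ratio of AKR1C2 to AKR1C1 in FPKM was 4.11 and 4.21 in T133A, 8.02 and 7.55 in KO, and 4.44 and 4.43 in WT. A gene antisense to AKR1C2, AL391427.1, had 19 to 283 counts per library.

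**Figure D4:**
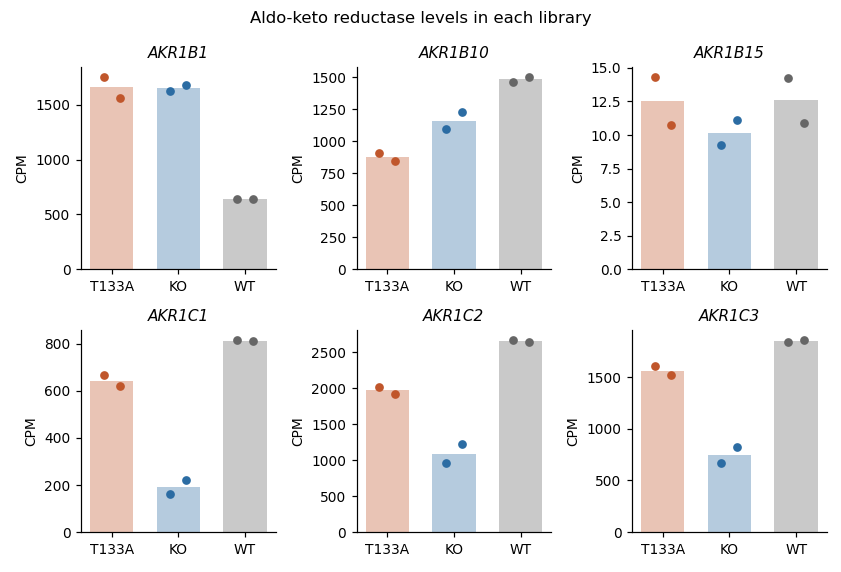
CPM of the 6 aldo-keto reductases in each library (points) with the mean of the 2 libraries (bars) for T133A, KO and WT. AKR1B1 is high in T133A and KO alike, AKR1B10 is lowest in T133A, and AKR1C1, AKR1C2 and AKR1C3 are lowest in KO.

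Of 9 other aldo-keto reductase genes tested, 2 were called higher and 4 lower in KO against WT, where 23.6% and 23.0% of all genes were called, and none in T133A against WT, where 5.58% and 3.97% were. AKR1C4, the hepatic member of the same cluster, was among those lower, with 7.76 and 8.94 CPM in T133A, 0.971 and 1.18 CPM in KO, and 9.24 and 7.86 CPM in WT (KO against WT -2.97, edgeR adjusted p = 3.07e-09). AKR7A2 (0.58, adjusted p = 0.000367) and KCNAB2, a potassium channel beta subunit of this family (0.68, adjusted p = 0.000547), were the 2 higher in KO.

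Other regulators and partners of NRF2 were measured for context. Of 13 tested, 3 were called higher and 3 lower in KO against WT, close to the 23.6% and 23.0% of all genes. In T133A against WT 2 were called higher and none lower (5.58% and 3.97% of all genes). SQSTM1, the p62 adaptor that can draw KEAP1 into autophagy, had 798 and 725 CPM in T133A, 1514 and 2241 CPM in KO, and 644 and 683 CPM in WT. It rose 2.83-fold in KO (edgeR adjusted p = 6.88e-09) and was not called in T133A (0.20, adjusted p = 0.408). BACH1, a repressor that competes with NRF2 at HMOX1, had 48.4 and 57.4 CPM in T133A, 26.7 and 23.8 CPM in KO, and 46.4 and 45.8 CPM in WT, and fell in KO (-0.87, adjusted p = 7.46e-06). MAFF, another small MAF protein, had 30.6 and 26.0 CPM in T133A, 8.86 and 9.26 CPM in KO, and 13.2 and 12.1 CPM in WT. It was the partner with the smallest adjusted p in T133A (1.16, edgeR adjusted p = 7.76e-06). MAFF was called lower in KO than in WT (-0.48, adjusted p = 0.017), as was the small MAF protein MAFK (-0.49, adjusted p = 0.00131). NFE2L3, a relative of NRF2, was higher in both, at 0.92 in T133A (adjusted p = 2.6e-05) and 1.21 in KO (adjusted p = 6.83e-08).

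Further genes reported as NRF2 targets were called in both directions. Of 21 tested, 6 were called higher and 11 lower in KO against WT (median -0.34; 23.6% and 23.0% of all genes), and 3 higher and 3 lower in T133A (median -0.16; 5.58% and 3.97% of all genes). The falls in KO included drug and conjugate exporters and fatty acid hydroxylases. ABCG2 had 120 and 118 CPM in T133A, 29.9 and 31.2 CPM in KO, and 127 and 130 CPM in WT (KO against WT -2.08, edgeR adjusted p = 4.88e-13). ABCC3 fell in KO by 1.69 on the log2 scale (adjusted p = 1.22e-11). CYP4F3 had 28.8 and 32.1 CPM in T133A, 15.1 and 16.7 CPM in KO, and 60.0 and 65.9 CPM in WT, and fell both in T133A (-1.05, adjusted p = 2.78e-06) and in KO (-1.99, adjusted p = 2.93e-11).

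Glutathione, thioredoxin and peroxide enzymes outside the 35 gave 8 higher and 4 lower of 20 in KO (23.6% and 23.0% of all genes), and 3 higher and 1 lower in T133A (5.58% and 3.97% of all genes), each against WT. GPX1, the common cytosolic glutathione peroxidase, rose in KO (1.32, edgeR adjusted p = 7.61e-10) and in T133A (0.42, adjusted p = 0.0105), while its relative GPX2 fell in KO. TXNIP, which binds and inhibits thioredoxin, had 13.5 and 7.64 CPM in T133A, 1.09 and 0.377 CPM in KO (18 and 7 counts), and 19.8 and 18.7 CPM in WT. It fell in KO (-4.73, adjusted p = 9.53e-11) and in T133A (-0.86, adjusted p = 0.0141). SOD2, the mitochondrial superoxide dismutase, had 519 and 564 CPM in T133A, 67.9 and 55.0 CPM in KO, and 76.5 and 69.1 CPM in WT. It had the smallest adjusted p of this list in T133A (2.89, adjusted p = 3.19e-14) and was not called in KO (-0.25, adjusted p = 0.0833).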

How the data were processed

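RNA was sequenced from 6 A549 libraries in 3 groups of 2. The deposited files hold a read count per gene, whole and unnormalized, and an FPKM value made by the authors. Per the submitters' processing notes the tools were HISAT2 2.0.5 and featureCounts 1.5.0 with GRCh38. Neither the annotation release nor the strand setting is given in the sources used here. Therefore similar or overlapping genes may share or lose reads. In the files 27 gene names had become dates and were restored by gene identifier, and SOD2, which has 2 identifiers, was read from the one with more counts. FPKM served only for levels between genes.

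Counts were tested with edgeR 4.0.16 (R 4.3.3; quasi-likelihood, robust, TMM, filterByExpr) in 1 fit of all 6 libraries. Two-sided p-values were adjusted by Benjamini-Hochberg over 16340 genes within each comparison, with a threshold of 0.05. The biological coefficient of variation was 8.96%. CPM use TMM scaling. Standard errors are the log2 fold change divided by the root of F. A positive log2 fold change means a higher level in the group named before "against" or "than". The procedure was tested on simulated data.

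The 35 genes and the other lists were chosen with earlier results of these data known. Values in every library are given for NFE2L2, KEAP1, the aldo-keto reductases and each member called in a comparison where its absolute log2 fold change reached 0.5. Of each other list, up to 4 called genes with the smallest adjusted p per comparison with WT could be named, and MAFK was named beside MAFF. Libraries of a group differed beyond counting error (chi-square divided by its degrees of freedom 10.1 in T133A, 12.1 in KO and 2.46 in WT). Shared 75-base stretches and GC content came from GENCODE 29 transcripts. Also tried were DESeq2 1.42.0, limma-voom (limma 3.58.1), RLE size factors, scaling by library size alone, other filters, fewer groups, a replicate block, a GC and length correction (loess, span 0.5), leaving out mitochondrial genes, a minimum log2 fold change of 0.5 and each library left out. A crossed block was added after the data were seen.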

Additional observations from a re-analysis of the deposited data

How the results depend on the processing

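For T133A against WT, the 7 members called lower became 15 with library size only, 13 without a low-count filter, 16 with only the groups compared, 12 with the GC and length correction, 12 with the replicate block and that correction, 4 with a minimum log2 fold change of 0.5 and 5 to 16 with 1 library left out. All genes called in that comparison numbered 1560, and 2409 with the GC correction and 763 to 2579 with 1 library left out. The replicate numbers did not pair the libraries (correlations of same-numbered deviations -0.12 to 0.02), and as a replicate block they gave 1 higher and 8 lower for T133A against WT, 16 higher and 9 lower for KO against WT, and 4 higher and 19 lower for T133A against KO. A crossed block, added after the data were seen, gave 15 members lower in either crossing and 2178 or 2830 genes called for T133A against WT. For KO against WT, a minimum fold left 10 members higher and 4 lower, and leaving out 1 library left 13 to 19 higher and 5 to 10 lower. For T133A against KO the 19 lower became 12 with the minimum fold and 17 with the GC and length correction. Without the mitochondrial genome genes, 1 member was called higher and 8 lower for T133A against WT. The same fit gave 16 higher and 10 lower for KO against WT, and 4 and 19 for T133A against KO. Of the calls, the 1 that changed direction was GPX4 in T133A against KO, called lower but at 0.0085 with the GC correction and 0.012 with that and the block. Among members not called, signs changed for 9 in T133A against WT, 5 in KO against WT and 7 in T133A against KO, including AKR1B15 in T133A against WT (-0.21 to 0.19 with 1 library left out) and AKR1B1 in T133A against KO (-0.039 with library size only, -0.024 without a filter and -0.057 to 0.079 with 1 library left out). Alternatives also added calls for 12 members not called in T133A against WT, 4 in KO against WT and 5 in T133A against KO. The causes were not tested. Apart from the minimum fold, 5 of 8 calls of T133A against WT, 16 of 27 of KO against WT and 20 of 23 of T133A against KO were kept under every alternative. With 2 libraries per group, small differences such as those of NFE2L2 and MAFG are not settled, and a lone library was assumed to vary like the others.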
